A study of Mus musculus with 2 samples.

Results

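Spliced antisense models are transcript models with at least 2 exons that the authors' tables class as antisense to an annotated gene and assign to no annotated gene. They were taken as the mouse rows classed as antisense, with 2 or more exons, in the transcript tables of both libraries. There were 1352 such models in replicate 1, of 18891 antisense models and 125484 rows in all, and 2204 in replicate 2, of 27304 antisense models and 137222 rows in all. Models of the libraries were matched by their intron chain, the exact coordinates of every intron, which gave 3188 distinct chains. For 38 of these the annotation showed no gene on the other strand. Chains that share exonic bases on the same strand were grouped into 2510 loci.

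The samples were left cerebral cortex from mice of strain B6CASTF1/J, a cross of C57BL/6J with the wild-derived CAST/EiJ strain, aged 18 to 20 months, and their RNA was read as long complementary DNA molecules that can cover most of a transcript. There were 2 libraries of 1 group, each from 2 µg of RNA, numbered as biological replicates 1 and 2 but with the same donor entry, so differences between them may be technical. No treatment or genotype contrast was named, and all animals carried both parental genomes. The labels gave the sex as female in some fields and as male in a free-text field, and the 4 Y-linked genes looked up (Ddx3y, Eif2s3y, Kdm5d and Uty) had 0 reads in both libraries. The tables held 871524 reads in replicate 1 and 839150 in replicate 2, and the spliced mouse reads, 680792 and 590171, served as the library totals. Markers of cortical excitatory neurons, inhibitory neurons, astrocytes and oligodendrocytes were read in both libraries, and so was Ttr of the choroid plexus (18 and 5 reads), whose other markers looked up, Otx2, Aqp1 and Folr1, were at 0. The 5 striatal markers looked up had 508 and 389 reads, most of them from Ppp1r1b (293 and 238) and Penk (179 and 132). Drd1 had 24 and 12, Drd2 3 and 5, and Adora2a 9 and 2. The part of striatal tissue in the results was not tested.

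Antisense transcripts can overlap a protein-coding gene entirely, start near its promoter and run the other way, or run into its end. Some are spliced long non-coding RNAs with their own promoters, and several are known to affect the gene across from them. Introns of most genes start with GT and end with AG on the transcribed strand, so an intron read on the wrong strand of such a gene shows CT and AC instead. Long-read cDNA does not always keep the strand of the RNA, and the way in which the authors oriented reads is not given in the sources used here. Strand assignments therefore carry an uncertainty that touches every result on these models.

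The models were grouped by whether their introns have the coordinates of annotated introns on the other strand. A few junctions of each kind are shown before the values. Each is 16 nt of the GRCm38 reference on the strand of the antisense model, with the intron's first or last 2 bases in capitals, 6 exonic bases and 10 intronic bases. The animals also carry CAST/EiJ alleles, which may differ from these letters. Opposite Nr2f2, which encodes the nuclear receptor COUP-TFII, the intron chr7:70358291-70359887 (+) had 12 and 13 antisense reads in replicates 1 and 2.
Nr2f2 first junction: gtacagCTgcaggagg
Nr2f2 last junction: aggccgatACcttccc
It has exactly the coordinates of an annotated Nr2f2 intron on the other strand. Opposite Zfp512b, a zinc finger gene, the intron chr2:181585074-181585672 (+), with 7 and 12 reads, likewise equals an annotated intron of that gene.
Zfp512b first junction: ccaattCTagggcaag
Zfp512b last junction: gccctcttACctctcc
Opposite Evpl, which encodes envoplakin of the epithelial cornified envelope, the intron chr11:116232939-116233439 (+), with 2 and 3 reads, equals no annotated intron.
Evpl first junction: ttgcagGTgggtgtac
Evpl last junction: ctctctgcAGgatgtt
Opposite Dnajb12, a membrane co-chaperone gene, the intron chr10:59895741-59897675 (-), with 2 reads in each library, equals none either.
Dnajb12 first junction: cccgagGTaggctgtc
Dnajb12 last junction: ctccttccAGcagttg
The Nr2f2 and Zfp512b introns begin with CT and end with AC, and the Evpl and Dnajb12 introns begin with GT and end with AG.

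Spliced models carried 2091 reads in replicate 1 and 3680 in replicate 2. That was 0.307% (95% Wilson interval 0.294 to 0.321) of spliced mouse reads in replicate 1 and 0.624% (0.604 to 0.644) in replicate 2, a replicate 1 to replicate 2 ratio of 0.493. The antisense class as a whole moved in the same direction, with a ratio of 0.524 between its shares of mouse reads. Spike-in RNAs of known strand did not: 0.895% (0.751 to 1.07) of spike-in reads in replicate 1 and 0.868% (0.712 to 1.06) in replicate 2 were classed as antisense. These spike-ins have no introns, so they give no measure of spliced antisense models. The intervals cover counting error only.

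Most models were seen in few reads. In replicate 1, 1140 of 1352 models (84.3%) had 1 read, and in replicate 2, 1815 of 2204 (82.4%) did. Of spliced intergenic models 90.5% and 88.2% had 1 read, and of spliced unannotated models of annotated genes 73.7% and 74.7%. Models with 10 or more reads numbered 17 and 29. The highest count of any model was 102 in replicate 1 and 104 in replicate 2, both opposite Slitrk5, and 20 chains held 20.3% of all member reads in replicate 1 and 18.4% in replicate 2. Exon number was low: 73.8% and 81.0% of models had 2 exons, against 9.71% and 10.1% of spliced annotated models. The share was 56.2% and 61.5% for spliced intergenic models. For spliced models of genes annotated as antisense it was 40.3% and 40.6%. The median length was 1961 nt in replicate 1 and 2164 nt in replicate 2, against 1551 and 1763 nt for unspliced antisense models. Introns shorter than 70 nt made up 3.83% and 4.87% of the introns of these models, against 0.0919% and 0.0888% of those of spliced annotated models. Spliced intergenic models had 1.67% and 2.57%, and spliced models of genes annotated as antisense 0.345% and 0.518%.

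The same intron chain was often found again in the other library once it had more than 1 read. Of replicate 1 chains with 1 read, 19.6% (17.4 to 22.1) were found in replicate 2, and of those with 2 to 4 reads 66.9% (59.5 to 73.5). All 23 chains with 5 to 9 reads and all 17 with 10 or more reads were found. For replicate 2 the shares found in replicate 1 were 9.53% (8.26 to 10.97), 42.3% (36.9 to 47.8), 88.0% (76.2 to 94.4) and 29 of 29. Unannotated spliced chains of annotated genes were found again at 21.03%, 64.1%, 95.6% and 99.9% in the same strata of replicate 1, and spliced intergenic chains at 8.36% with 1 read. Single-read antisense chains of replicate 1 thus recurred in replicate 2 about as often as unannotated chains of annotated genes. Those of replicate 2 recurred less often (9.53% against 20.9%). Replicate 1 had fewer spliced antisense reads in which to find them (2091 against 3680), and the part of this was not tested. Over all chains, 388 of 3188 (12.2%) had reads in both libraries, and they included all 48 chains with 10 or more reads in total.

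**Figure D1:**
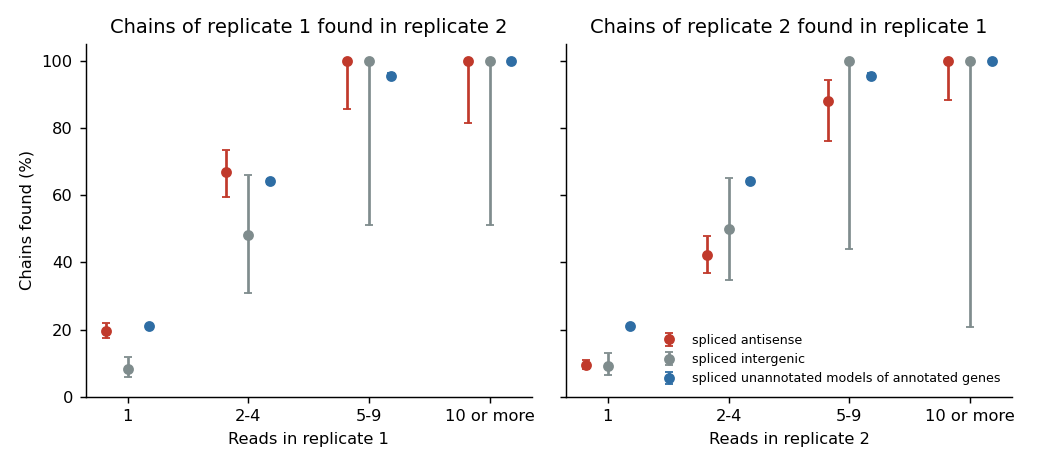
Percentage of intron chains of each library that were found in the other library, by their reads in the first, with 95% Wilson intervals, for spliced antisense chains, spliced intergenic chains and unannotated chains of annotated genes. Antisense chains with 1 read were found again at 19.6% from replicate 1 and 9.53% from replicate 2, and all of those with 10 or more reads were found again.

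Introns that copy the opposite gene's own introns were a main feature of the set. Of 3898 distinct introns, 918 (23.6%, 22.2 to 24.9) had exactly the start and end of an annotated intron on the other strand, and are called mirrored here. Of introns of spliced intergenic models 2 of 1076 (0.186%) did so, and of unannotated models of annotated genes 38 of 187236 (0.0203%). These low shares are largely fixed by the classes. Intergenic models lie outside annotated genes, and the others lie on their gene's own strand and were not limited to places with another gene opposite. In 753 chains (23.6%) every intron was mirrored, in 78 some were, and in 2357 (73.9%) none was. Fully mirrored chains held 35.7% (33.7 to 37.8) of member reads in replicate 1 and 38.6% (37.1 to 40.2) in replicate 2. They were found again more often: 158 of 305 in replicate 1 (51.8%, 46.2 to 57.4), against 20.9% (18.5 to 23.5) of chains with no mirrored intron, and 26.0% (22.6 to 29.6) against 13.8% (12.1 to 15.6) in replicate 2. Mirrored models also held more reads per model, at 747 reads on 305 models in replicate 1, against 1312 on 1019 with no mirrored intron. In replicate 2 they held 1421 on 605, against 2187 on 1541. The shares found again were not split by reads, so the part of read number was not tested. Of the 48 chains with 10 or more reads, 27 were fully mirrored.

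Where the reference letters could be read, mirrored introns and the rest had opposite ends. Letters were available for introns whose ends fall in an annotated exon or promoter, 262 of 3898 (6.72%). All 59 covered mirrored introns read CT-AC (100%, 93.9 to 100). These are the letters that a mirror of a GT-AG intron has by construction. Of 203 other covered introns, 150 (73.9%, 67.4 to 79.5) were GT-AG, 37 (18.2%, 13.5 to 24.1) GC-AG and 4 CT-AC. Unannotated introns of annotated genes were GT-AG in 90.2% and GC-AG in 7.002% of 9555 covered cases. Counting every end that was covered by itself, mirrored introns began with CT in 134 of 136 cases and ended with AC in 118 of 120, whereas other introns began with GT in 421 of 497 and ended with AG in 421 of 452.

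A further 163 introns lay within 10 nt of an annotated opposite intron at both ends without equalling it, and 40 of them had its exact length and were shifted by 2 to 7 nt, most often by 2 nt (18 introns). Of intergenic introns 1 of 1074 lay that close, and of introns of unannotated models of annotated genes 55 of 187198, shares that the classes again largely fix. The best read of the 163 introns was opposite Mir124a-1hg, the host gene of a miR-124 precursor. Its antisense intron chr14:64588963-64589835 (-) was shifted by 5 nt from the annotated intron 64588968 to 64589840, at the same length of 873 nt, and had 65 and 102 reads, with 0 sense reads over the annotated intron in both libraries. The Tspan13 intron, of a tetraspanin gene, was shifted by 2 nt, with 4 and 8 antisense reads against 282 and 218 sense reads over the annotated intron. Of 6 covered introns with the same length, 5 were GT-AG. With such near copies included, 919 chains (28.8%) had every intron mirrored, and they held 43.7% of member reads in replicate 1 and 46.7% in replicate 2.

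Short direct repeats marked part of the other introns. A direct repeat here is a stretch of identical bases that spans both junctions of an intron, so that the place of the junction cannot be fixed within it. Repeats of 6 nt or more were present at 19 of 186 covered introns without a mirror (10.2%, 6.64 to 15.4), at 0 of 55 mirrored introns, at 340 of 8454 unannotated introns of annotated genes (4.02%, 3.62 to 4.46) and at 357 of 14225 annotated introns with reads (2.51%). The minimum of 6 nt was set after some junctions had been seen. Both examples below show 20 nt around each junction on the antisense strand, with the repeat in capitals. The Smg1 intron, opposite a kinase gene of nonsense-mediated decay, is chr7:118205045-118205108 (+), 64 nt long, and had 3 and 9 reads.
Smg1 first junction: agatgGCTAGGTTGGTAAAG
Smg1 last junction: aggaaGCTAGGTTGGTAAAG
The St13 intron, opposite an Hsp70-interacting protein gene, is chr15:81384249-81384444 (+), 196 nt long, and had 0 and 7 reads.
St13 first junction: acatAAAAAGGCTTCCAAGA
St13 last junction: aaaaAAAAAGGCTTCCAAGA
The Smg1 repeat is 15 nt and the St13 repeat 16 nt within these windows. The Evpl junctions shown earlier also share a repeat, of 6 nt.

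Chains with the most reads are described next, and with log2 ratios (replicate 1 over replicate 2) of reads per 1000000 spliced mouse reads (CPM), 1 CPM being added to each, and a standard error (SE) that covers counting alone. The chain with the most reads lay opposite Slitrk5, which encodes a synaptic adhesion protein, on chr14:111675097-111681234 (-). It had 102 reads in replicate 1 and 104 in replicate 2, or 163 ± 18.7 CPM (SD, n = 2), while all models of Slitrk5 itself had 21 and 25. Its intron of 3214 nt is mirrored, and antisense reads made up 94.95% (91.2 to 97.2) of the reads over that intron on either strand. All 2924 exonic bases of the model lie on Slitrk5 exons, and its 3′ end is at an annotated Slitrk5 start. The libraries did not differ by the exact test (log2 ratio -0.23, SE 0.20, adjusted p = 0.898).

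Opposite Crebbp, which encodes a histone acetyltransferase that acts as a transcriptional coactivator, antisense models mirrored a run of long introns. The main chain, chr16:4128444-4213997 (+), has 6 exons and 5 introns, all mirrored, and had 25 and 29 reads, while Crebbp had 10 and 18 reads in all and 1 and 5 on spliced models. All of its 2344 exonic bases are Crebbp exon bases on the other strand, and its 3′ end is at an annotated Crebbp start. The locus held 12 chains, 6 of them found in both libraries, with 45 and 55 reads. Of the mirrored introns, chr16:4180134-4213138 had 45 and 54 antisense reads and 0 and 2 sense reads, and chr16:4155034-4179423 had 37 and 43 antisense and 0 sense reads in either library. Antisense reads thus outnumbered sense reads over every intron of this chain.

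Other mirrored chains differed in how much the opposite gene itself was read. Sh3glb2, which encodes endophilin B2, had 413 and 385 reads of its own, and the chain opposite it, chr2:30348428-30351683 (+), had 27 and 71. Over its mirrored intron of 203 nt, antisense reads numbered 37 and 83 against 373 and 334 sense reads (14.5% antisense, 12.3 to 17.1). Gtf2a1, which encodes a subunit of the general transcription factor TFIIA, had 2 and 7 reads, and the chain opposite it had 15 and 28. Igf1r, the receptor for insulin-like growth factor 1, had 6 and 8 reads and none on spliced models, and its antisense chain, with an intron of 50857 nt, had 10 and 22. Mbnl1, a splicing regulator, had 13 and 21 reads, and its antisense chain, with an intron of 65789 nt, had 19 and 20. Prpf38b, a pre-mRNA processing gene, had 20 and 15 reads against 22 and 27 for the chain opposite it. Bcl2l1, which encodes the cell survival protein Bcl-xL, had 152 and 115, and its chain 15 and 33. Chains opposite Carmil1, a regulator of actin capping, Lyrm4, a factor of iron-sulfur cluster assembly, Adgrl2, a latrophilin, and Tox, an HMG-box gene, were mirrored as well. They had 10 and 24, 10 and 23, 9 and 19, and 16 and 9 reads. Ubl3, a ubiquitin-like gene, had 335 and 267 reads and its mirrored chain 17 and 16. The mirrored chain opposite AC149090.1, with 17 and 30 reads, is on an unplaced scaffold, where reads shared with copies of the sequence elsewhere cannot be told apart.

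**Figure D2:**
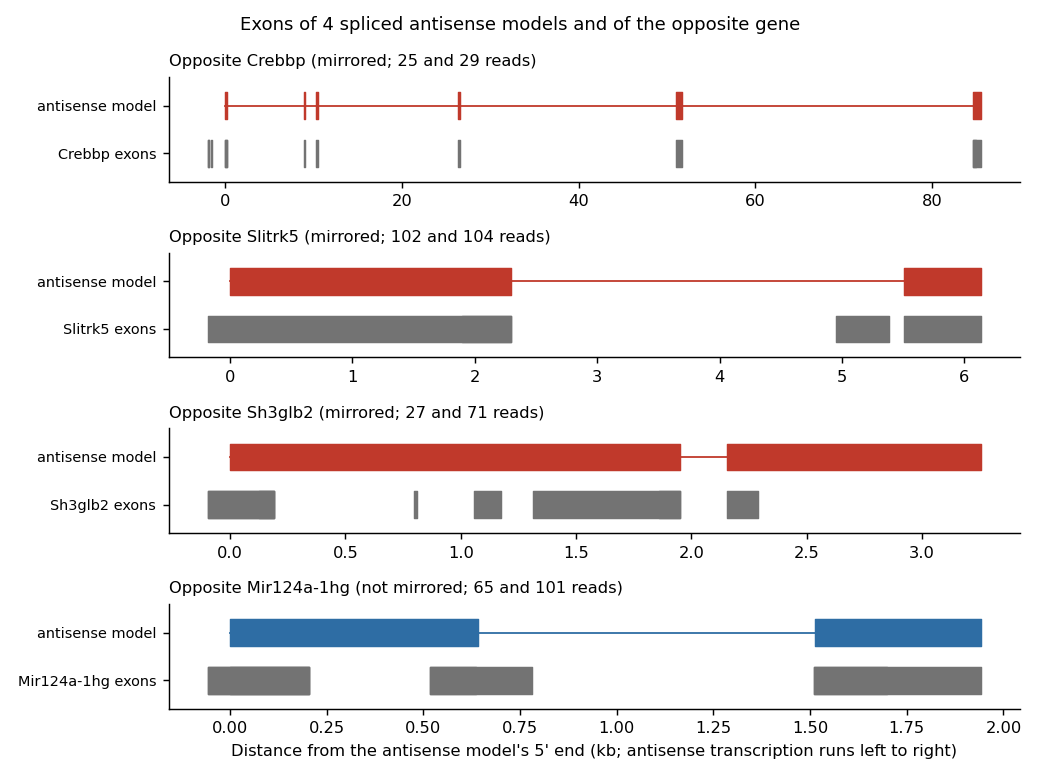
Exons of 4 spliced antisense models (coloured) above the annotated exons of the opposite gene (grey), drawn to scale as distance in kb from the 5′ end of the antisense model, each with its reads in replicates 1 and 2. The junctions opposite Crebbp, Slitrk5 and Sh3glb2 fall at the gene's own exon borders, and the Mir124a-1hg junctions lie 5 nt from the ends of an annotated intron, one of which is hidden where exons of several transcripts overlap.

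Chains without a mirrored intron included some of the best read. The chain opposite Mir124a-1hg, chr14:64588534-64590476 (-), had 65 and 101 reads, while the host gene had 14 and 13 in all and 1 and 0 on spliced models. Its 5′ end is at an annotated 3′ end of the host gene and its 3′ end at an annotated start. Lncpint, a long non-coding RNA gene that p53 induces, had 1 and 3 reads, and the chain opposite it, chr6:31199290-31205949 (+), had 8 and 42, with an intron of 53 nt and no base on a Lncpint exon. Huwe1, an E3 ubiquitin ligase gene on the X chromosome, had 23 and 29 reads, and its antisense chain had 3 and 20, with an intron of 63 nt. Lin7a, a scaffold gene of cell junctions, faced a chain with an intron of 41 nt and 10 and 24 reads. Tra2b, a splicing regulator, faced a chain with 11 and 26 reads whose intron ends lie 6 and 4 nt from an annotated Tra2b intron. The chain opposite D430019H16Rik had 13 and 10 reads. Introns of 41 to 63 nt are shorter than 70 nt. In replicate 1, 0.0919% of introns of spliced annotated models and 1.67% of those of spliced intergenic models were below that length.

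**Figure D3:**
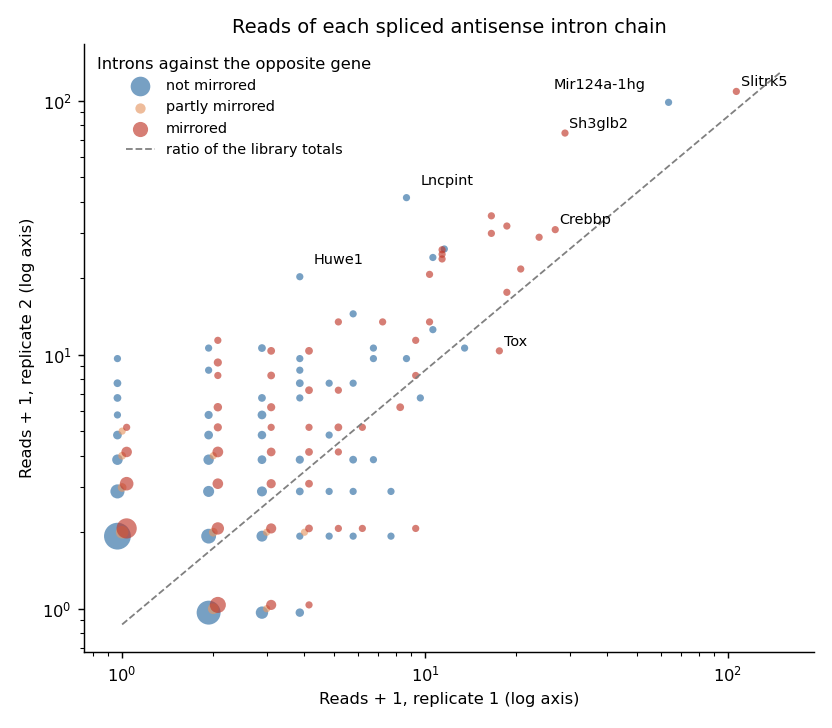
Reads of each of the 3188 spliced antisense intron chains in replicates 1 and 2, as reads + 1 on log axes, coloured by whether the introns mirror those of the opposite gene. Dot area grows with the number of chains at a point, classes are shifted slightly so that they do not cover each other, and the dashed line is the ratio of the library totals. Most well-read chains lie above the line, with Huwe1 and Lncpint the farthest above it of the 7 labelled chains, and Tox lies below it.

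Antisense reads exceeded sense reads at a minority of mirrored introns. Over both libraries antisense reads were more numerous at 121 of 918 introns (13.2%, 11.1 to 15.5), equal at 35 and fewer at 762. At 53 introns they were more numerous in each library, and 78 introns had no sense read. Among the 39 introns with 10 or more antisense reads, antisense was the more numerous at 21. Where the sense strand had 10 or more reads, the median antisense share was 2.78%. Summed over all mirrored introns, antisense reads were 2.48% (2.34 to 2.63) of the reads in replicate 1 and 5.04% (4.82 to 5.26) in replicate 2. Each of the 918 introns is in the set because it had an antisense read in either library. Annotated introns without one are left out, so these shares are higher than over all annotated introns. By place in the opposite gene, 53.4% (50.1 to 56.6) of mirrored introns were internal and 17.8% (15.4 to 20.4) were the first intron, against 56.8% and 19.95% of annotated introns with reads. The last intron made up 22.3% (19.8 to 25.1) against 19.3%, and an only intron 6.54% (5.11 to 8.32) against 3.96%. Only 74 of 753 mirrored chains (9.83%) held all introns of an annotated opposite transcript, and none of the 48 with 4 or more exons did.

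**Figure D4:**
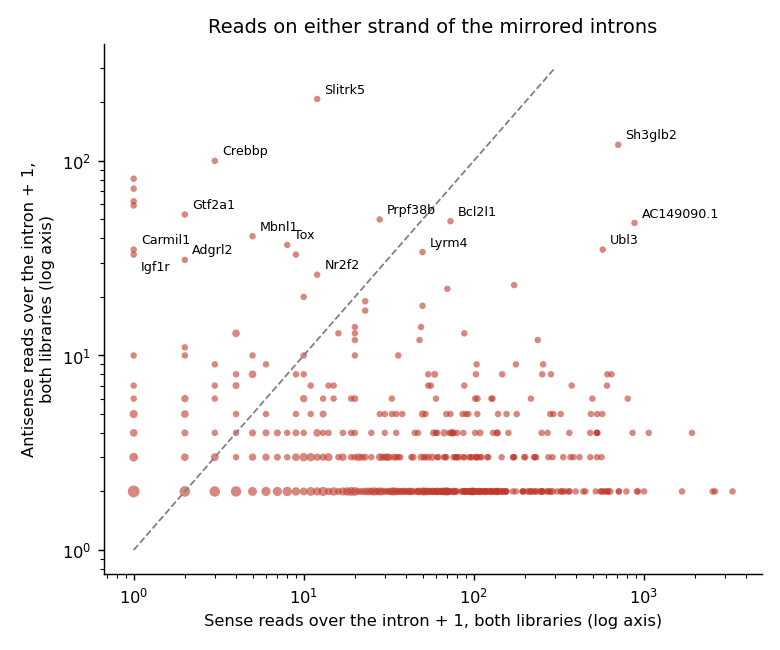
Antisense reads (vertical) against sense reads (horizontal) over each of 918 mirrored introns, both libraries summed, as reads + 1 on log axes, with the line of equal reads dashed and dot area growing with the number of introns at a point. Introns opposite Slitrk5, Crebbp, Gtf2a1, Mbnl1 and Tox lie above the line, and most introns lie at 1 or a few antisense reads below it.

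Most chains lay inside the span of the opposite gene. Of 3188 chains, 2547 (79.9%, 78.5 to 81.2) were contained in it, 321 (10.1%) overlapped its start head-to-head, 172 (5.40%) overlapped its end tail-to-tail, 110 (3.45%) spanned it, and 38 (1.19%) had no annotated gene opposite. The opposite gene was protein-coding for 2895 chains (90.8%) and a lincRNA for 3.29%. Mirrored introns lie inside the opposite gene by definition, which largely fixes the next values. Mirrored chains were contained in 96.9% (95.5 to 98.0), against 73.9% (72.1 to 75.6) of chains with no mirrored intron, and head-to-head in 0.664% (0.284 to 1.54) against 13.4% (12.1 to 14.8). The exons of mirrored chains had a median 29.5% of their bases on opposite exons, against 0.391% for chains with no mirrored intron, of which 966 had no such base.

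**Figure D5:**
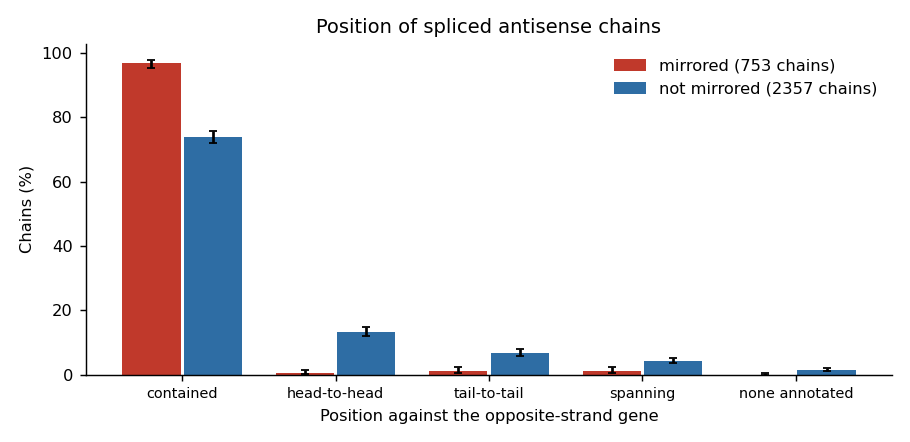
Percentage of mirrored chains (753) and of chains with no mirrored intron (2357) in each position against the opposite-strand gene, with 95% Wilson intervals. Contained chains made up 96.9% of the mirrored and 73.9% of the others, and head-to-head chains 0.664% and 13.4%, a contrast that the definition of mirrored largely fixes.

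Model ends often coincided with ends of the opposite gene. The 5′ end was within 50 nt of an annotated 3′ end of the opposite gene in 181 of 753 mirrored chains (24.0%, 21.1 to 27.2), against 121 of 2319 chains with no mirrored intron and a gene opposite (5.22%, 4.38 to 6.20). The 3′ end was within 50 nt of an opposite start in 153 mirrored chains (20.3%) and 100 of the others (4.31%). Most of these fell on the very base: 177 and 144 of the mirrored chains did so. The sources used here do not say how model ends were set, and the part of that step in this was not tested. Starting within 500 nt of an opposite start was less frequent among mirrored chains (73, 9.69%, 7.78 to 12.02) than among the others (316, 13.6%, 12.3 to 15.1). Mirrored introns lie inside the opposite gene by definition, which in part fixes where these chains can start and end. The contrasts in this paragraph are therefore not independent of that definition.

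Where letters at the 3′ end could be read, they rarely held a polyadenylation signal. The models covered are those that end on annotated exons or in promoter windows, 309 of 1352 in replicate 1 and 470 of 2204 in replicate 2, against 18577 of 18722 and 18305 of 18442 spliced annotated models. AATAAA or ATTAAA, searched on the model's strand in its last 50 nt, stood in 31 of 309 covered models of replicate 1 (10.03%, 7.16 to 13.9) and 42 of 470 of replicate 2 (8.94%, 6.68 to 11.9). The shares were 9.85% and 10.6% for unspliced antisense models, 52.3% and 54.3% for spliced models of genes annotated as antisense, and 69.3% and 68.8% for spliced annotated models. The 20 nt downstream of the 3′ end were covered for 243 of 1352 and 371 of 2204 spliced antisense models. They were covered for 3349 of 17539 and 4017 of 25100 unspliced antisense models. Of spliced annotated models only 6087 of 18722 and 6001 of 18442 were covered there, far fewer than for the last 50 nt. In these 20 nt, 60% or more A was found at 16.05% (11.97 to 21.2) and 19.1% (15.5 to 23.4) of covered spliced antisense models. It was found at 30.8% and 29.2% of covered unspliced antisense and 6.41% and 6.37% of covered spliced annotated models. Mirrored chains and the others were alike in signal letters to within their intervals, at 9.49% (5.63 to 15.6) and 9.26% (5.69 to 14.7) in replicate 1.

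Some chains started in the opposite promoter. In all, 56 of 3188 chains (1.76%) began inside the 300 nt RefSeq promoter window of the opposite gene, from 250 nt before its start to 50 nt after, and all 56 had no mirrored intron. A chain that starts there runs away from the gene and can hardly share its introns, so this follows largely from the definition of mirrored. Those windows held a median of 30 CpG dinucleotides, against 7 over all 32851 windows, and a median GC share of 69.7%, against 52.7%. The 32851 windows were not limited to genes with reads, so the part of gene level in this contrast was not tested. None of these chains had more than 3 reads in total, and 8 were found in both libraries. They included chains opposite Lingo1, a neuronal receptor component that limits myelination, with 1 read in each library, and Cabp1, a neuronal calcium-binding protein, with 2 and 1 reads. Their windows are shown as examples on the strand of the gene, from RefSeq on GRCm38.p6, and capitals mark the bases covered by the first exon of the antisense model. The Lingo1 window is chr9:56796261-56796560 (-), with 35 CpG, and the Cabp1 window is chr5:115194332-115194631 (-), with 22.
Lingo1: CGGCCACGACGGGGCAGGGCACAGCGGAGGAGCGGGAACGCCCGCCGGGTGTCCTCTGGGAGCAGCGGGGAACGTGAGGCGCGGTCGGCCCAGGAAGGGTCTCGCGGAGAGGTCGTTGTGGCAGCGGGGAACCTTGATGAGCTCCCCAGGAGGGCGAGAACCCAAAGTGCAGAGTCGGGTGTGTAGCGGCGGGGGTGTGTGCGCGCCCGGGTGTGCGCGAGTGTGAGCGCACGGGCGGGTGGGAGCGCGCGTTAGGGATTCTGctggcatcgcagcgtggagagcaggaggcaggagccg
Cabp1: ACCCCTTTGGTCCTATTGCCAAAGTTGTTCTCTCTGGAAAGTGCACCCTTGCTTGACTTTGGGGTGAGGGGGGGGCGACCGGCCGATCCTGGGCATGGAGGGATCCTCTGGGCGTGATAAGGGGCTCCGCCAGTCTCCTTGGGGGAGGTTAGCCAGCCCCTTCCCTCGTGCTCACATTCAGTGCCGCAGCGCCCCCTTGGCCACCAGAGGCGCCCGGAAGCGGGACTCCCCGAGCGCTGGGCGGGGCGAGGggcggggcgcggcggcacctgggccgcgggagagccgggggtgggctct
The antisense model opposite Cabp1 begins at the RefSeq start base of Cabp1, and that opposite Lingo1 begins 12 nt into the gene. RefSeq lists a gene on the antisense strand, Gm35515, whose start is 43 nt from the 5′ end of the chain opposite Cabp1.

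Some chains begin at genes that RefSeq lists on the same strand. A RefSeq start on the chain's own strand lay within 500 nt of the 5′ end of 172 chains (5.40%), and for 167 of them the RefSeq symbol is absent from the GENCODE M21 annotation that the files use. The best read were chains at Gm3255, opposite 9030025P20Rik, tail-to-tail on chr17:14981576-14992875 (-), where the main chain of 3 exons had 8 and 9 reads. That locus held 12 chains, 6 of them found in both libraries, with 23 and 20 reads. The chain at Gm41507, opposite Gm41505, had 2 and 3 reads. A chain opposite Dnm1, the dynamin 1 gene, on chr2:32313804-32319398 (+), carries the hairpins of Mir199b and Gm23363 in an exon on its own strand. It had 1 read in replicate 1, and in replicate 2 its 3 reads were given to an annotated gene. The mature miRNAs are shown from RefSeq (GRCm38.p6) with the seed, bases 2 to 8, in capitals.
mmu-miR-199b-3p: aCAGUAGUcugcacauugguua
mmu-miR-3154: cAGAAGGGgagucgggagcgga
The seeds of these miRNAs differ.

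Genes with few or no reads rarely had a spliced antisense chain opposite. Of 8498 annotated genes with 10 or more reads in each library, 1381 (16.3%, 15.5 to 17.1) had one, against 802 of the 47038 other annotated genes (1.71%, 1.59 to 1.83). Among the 8498, the share was 15.9% (14.9 to 16.9) at a mean of 10 to under 50 reads, 16.7% (15.4 to 18.1) at 50 to under 200 and 17.2% (14.4 to 20.3) at 200 or more. Across the 2183 opposite genes, log2 of reads + 1 of the antisense chains and of the gene correlated at Pearson's r = 0.13, as a description, since both come from the same libraries. The antisense chains had more reads than the gene in each library at 35 genes, and at 14 of the 68 genes with 10 or more antisense reads, which include Slitrk5, Mir124a-1hg, Crebbp, Gtf2a1, Lncpint, Igf1r, Prpf38b and Carmil1.

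Loci with the most distinct chains were of several kinds. The locus opposite AC149090.1 on the unplaced scaffold had 19 chains, none in both libraries. That at Gm26917, on chr17:39843013-39848035 (-), had 15 chains, 1 in both libraries, with 6 and 11 reads. Gm26917 was the opposite gene of only 10 chains, with 3 and 8 reads, and not of the other chains of this locus. Crebbp and 9030025P20Rik followed with 12 each. Snhg11, a small nucleolar RNA host gene, also had 12, none in both libraries and none mirrored, with 4 and 8 reads. In contrast to the Crebbp locus, where 6 chains recurred, nearly all chains at the Gm26917 and Snhg11 loci were found in 1 library. The Crebbp locus had more reads, 45 and 55, and the part of read number in this contrast was not tested. Loci with 5 or more chains numbered 32, and 2119 of 2510 loci (84.4%) had 1 chain.

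Named sets of opposite genes are described by counts. Of 45 synaptic and excitability genes, 17 had a spliced antisense chain, 5 of them in both libraries, with 20 and 25 reads in all. The most reads were opposite Shank1, a postsynaptic scaffold gene, with 5 and 7 over 9 chains, and Grin2b, an NMDA receptor subunit gene, with 3 and 6. The best read Grin2b chain had 3 and 4 reads and mirrored an intron of 127096 nt. Of 20 RNA processing and nuclear RNA genes, 9 had a chain, with 30 and 46 reads, of which Mbnl1 had 19 and 23. Of 32 developmental transcription factor genes, 9 had a chain, and Nr2f2 accounted for 13 and 13 of their 17 and 20 reads. The Nr2f2 chain of 3 exons had 4 and 12 reads and that of 2 exons 8 and 1, both fully mirrored, against 31 and 21 reads of Nr2f2. Of 18 imprinted genes and neighbours 5 had a chain, among them Rian, a maternally expressed non-coding RNA gene, with 7 chains, all mirrored, and 3 and 5 reads. Of 20 glial genes 4 had a chain, with Slc1a3, the glutamate transporter GLAST, at 3 and 5 reads and Slc1a2 at 2 and 5. Of 19 neurodegeneration genes 3 had a chain, among them Htt, the huntingtin gene, with 1 and 4 reads and Mapt, which encodes tau, with 0 and 1. Over all annotated genes with 10 or more reads in each library the share was 16.3%, and the sets differ from them in gene length and level, which was not tested.

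The libraries differed in the level of these chains in mostly 1 direction. Chains with 10 or more reads in total were compared between libraries by a two-sided exact binomial test against the library totals, adjusted over all 13084 spliced chains by the method of Benjamini and Hochberg. Over all chains 55 were called at an adjusted p under 0.05 (0.420%), 30 higher and 25 lower in replicate 1 (0.191% lower). Scaled by all mouse reads instead, the split was 169 higher and 19 lower, and the median log2 ratio over all chains moved to 0.16. Of the 48 spliced antisense chains tested, 3 were called, all lower in replicate 1. These were the chains opposite Lncpint (log2 ratio -2.50, SE 0.54, adjusted p = 8.37e-05, exact test), Sh3glb2 (log2 ratio -1.58, SE 0.32, adjusted p = 0.000217, exact test) and Huwe1 (log2 ratio -2.69, SE 0.83, adjusted p = 0.0241, exact test). The chain opposite Mir124a-1hg missed the threshold (log2 ratio -0.84, SE 0.23, adjusted p = 0.0548, exact test). In all, 43 of the 48 (89.6%) were lower in replicate 1, against 48.5% of all chains, and the median log2 ratio was -1.17, against 0.01 over all chains.

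Over loci the picture was similar. Of 9900 loci and annotated genes with 10 or more reads, 80 were called (0.808%), 30 higher and 50 lower in replicate 1 (0.505% lower), and 208 and 35 when scaled by all mouse reads. Of 66 spliced antisense loci, 6 were called, all lower in replicate 1. The Lncpint, Sh3glb2, Mir124a-1hg and Huwe1 loci had 8 and 44, 37 and 83, 71 and 114, and 3 and 20 reads. The locus opposite Ndufa13, a subunit gene of respiratory complex I, had 0 and 11 reads over 4 chains (adjusted p = 0.0330, exact test). It reached the minimum of 10 reads through replicate 2 alone, so its direction is not independent of that minimum. The last, on chr6:38430648-38432854 (+) with no annotated gene opposite, had 0 and 12 antisense reads, but the same chain had 10 reads in replicate 1 that the table classed as intergenic. Counted in any class, 5 loci were called. The antisense share of all mouse reads was also lower in replicate 1, at 8.85% against 16.9% in replicate 2, and its part in these calls was not tested.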

How the data were processed

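The authors deposited whole long-read counts per transcript model, 1 table for each library, and an annotation of the models. The text notes deposited beside the tables name mm10 and GENCODE M21, and the deposited annotation names TALON. Which aligner, error correction, filters and read orientation were used is not given in the sources used here. A model absent from a table was taken as 0 reads, which allows 4.41 and 5.08 reads per 1000000 spliced mouse reads (3 counts of the total) in replicates 1 and 2. Spans of opposite genes were taken from their annotated transcripts, because the deposited gene rows differ from these for 16343 of 55536 genes. The opposite gene is that with the most exonic overlap, then the most span overlap, and 365 chains had more than 1.

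Reference letters came from M21 transcripts and RefSeq promoter windows on GRCm38. Shares have 95% Wilson intervals and the test is an exact conditional binomial test (SciPy 1.17.1). With 1 group, edgeR's quasi-likelihood test could not be fitted, so edgeR 4.0.16 and DESeq2 1.42.0 gave scaling factors only. On simulated chains with sampling error only, the test called 36 of 188 chains changed 2-fold (19.1%), among 12139 chains tested in all. It called 104 of 195 changed 4-fold (53.3%), among 12124 tested. The members, gene lists and tests were chosen with earlier results of these data known. Chains were named as the 20 with the most reads, those called, the 5 mirrored chains with the most reads, up to 15 chains opposite listed genes with 5 or more reads, and the 5 loci with the most chains. Genes outside this rule, including those of the shown sequences, were chosen after their values were seen.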

Additional observations from a re-analysis of the deposited data

How the results depend on the processing

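No paired analysis was possible because the study has 1 group. The count of spliced antisense chains called between the libraries was 3, and between 2 and 4 under the other minima and scalings. The count of loci was 6, and between 4 and 6, with 5 for reads in any class, which was added after seeing the data. Over all chains the test called 55, against 28 with no minimum and 188 when scaled by all mouse reads, and over all loci 80, against 243 when scaled by all mouse reads. The Mir124a-1hg chain was called with a minimum of 20 reads, TMM and DESeq2 factors (log2 ratios -0.84, -0.86 and -0.85), and Huwe1 was not called with no minimum, where 142528 chains were tested. Among 125 values of named chains under the alternatives, 1 changed sign, that of Ubl3 (log2 ratio 0.04 when scaled by all mouse reads and -0.11 when scaled by spliced reads), which was not called under either.

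Spliced models held 2.67% of antisense reads over both libraries, between 2.63% and 2.75% with either library left out, and 0.489% with 3 or more exons. Chains found in the other library, as a share of the chains of each library summed, were 21.3%, or 59.7% with 2 or more reads, 22.7% with intron ends within 10 nt and 20.7% when the chain had to be antisense in both. Mirrored introns were 23.6%, between 22.3% and 28.4% with either library left out, 27.7% within 10 nt, and 23.9% with unannotated opposite introns included, which was added after seeing the data. GT-AG introns were 57.3% of covered introns and 59.2% weighted by reads. Contained chains were 79.9%, between 75.7% and 83.2% with either library left out, and 78.2% with coding genes only.

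Depth limits these results. Most models rest on 1 read, letters were available for few introns, and 2 libraries with 1 donor entry leave the spread between animals unknown. Reads of overlapping genes on both strands depend on a strand call whose method was not given.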

Other observations

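Beside the hairpins opposite Dnm1, 14 miRNA hairpins overlapped a spliced antisense chain, and each lay on the other strand. Hairpins of Mir128-1, Mir208b, Mir3072, Mir574, Mir7066, Mir7082 and Mir876 fall in an exon of a chain with 1 or 2 reads in all, chosen after their values were seen. Mir1931 lies in the intron or across an end of a chain opposite Cdk17, a cyclin-dependent kinase gene, which had 9 and 6 reads. Its intron ends lie 3 and 6 nt from those of an annotated Cdk17 intron that had 218 and 148 sense reads.

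A chain opposite Nup88, a nuclear pore gene, had 9 exons and 8 mirrored introns and 0 and 1 reads. A chain of 22 exons opposite AC149090.1, with no mirrored intron, also had 0 and 1 reads.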
